A study of Mus musculus with 24 samples.

Results

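The genes described here are the IL-1 receptor family and the proximal part of its signalling chain in mouse hematopoietic stem cells (HSCs). They were chosen by name as the rows of the normalized read count table for *Il1r1*, *Il1rl1*, *Il1rl2*, *Il18r1*, *Il1rap*, *Il18rap*, *Il1r2*, *Myd88*, *Irak4* and *Irak1*, and all 10 had a row among the 18762 genes of the table. HSCs were LSK-SLAM cells, a bone marrow fraction sorted as lineage-negative cells with Sca-1, c-Kit and CD150 but without CD48 and enriched for HSCs, from WT C57BL/6 mice with no other allele or treatment given. The young group held 5 mice labelled 4 to 5 months of age and the old group 7 mice labelled 20 to 22 months. The study's own description of this RNA-seq gives higher ages for both groups, and the label ages are used here. The labels list 24 samples, 2 for each of the 12 mice, and 1 column of values was deposited per mouse, so that n counts mice throughout.

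The IL-1 receptor family passes signals of the cytokines IL-1, IL-18, IL-33 and IL-36 into the cell. A ligand-binding chain pairs with an accessory chain, the cytoplasmic TIR domains of the pair recruit the adaptor MYD88, and MYD88 assembles with the kinases IRAK4 and IRAK1 to activate NF-κB and MAP kinases. In HSCs, IL-1 is known as an inflammatory signal that drives division and myeloid output.

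Values are normalized read counts, that is reads of a gene per 1000000 reads of the scaled library. Whole reads could be recovered from them, and the libraries held 2.05 to 5.12 M reads in young and 0.861 to 5.00 M in old mice, with M for 1000000, so that 3 reads correspond to between 0.583 and 3.69 normalized read counts. Each mouse label ends in a letter, A (2 young and 4 old mice) or B (3 young and 3 old mice), whose meaning the labels do not give. Mice with letter A had fewer reads (0.861 to 3.11 M) than mice with letter B (3.23 to 5.12 M), so that letter and depth cannot be told apart, and results are also given within each letter. The HSC and LSK genes fixed as a check were present in every mouse, with 11 of 11 in the table and *Kit* between 546 and 2049 normalized read counts, while *Cd48*, which the gate excludes, lay between 0.583 and 11.8.

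A cluster on chromosome 1 holds 6 of the 10 genes (GRCm38, GENCODE vM21), all transcribed from the plus strand within 477627 bases between 40074079 and 40551705, with no other protein-coding gene among them. *Il1r2* (40074079 to 40125231) comes first, followed by *Il1r1* (40225080 to 40317257), *Il1rl2* (40324610 to 40367562), *Il1rl1* (40429570 to 40465415), *Il18r1* (40465552 to 40500854) and *Il18rap* (40515362 to 40551705). *Il1rl1* and *Il18r1* are separated by 136 bases. The other members lie apart, *Il1rap* on chromosome 16 (26581704 to 26730117, plus strand), *Irak4* on chromosome 15 (94543643 to 94581815, plus strand), *Myd88* on chromosome 9 (119335934 to 119341411, minus strand) and *Irak1* on chromosome X (74013914 to 74023918, minus strand). Exons of *Il1rap*, *Irak4* and *Myd88* overlap exons on the opposite strand (*Gm20319* over 552, *Twf1* over 395 and *Acaa1a* over 290 bases), and the sources used here do not say whether counting used strand. No exon of the 6 clustered genes overlaps an exon of another gene.

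The bases before the transcription starts differ in CG content between these loci. Shown are the 250 bases upstream of RefSeq starts (GRCm38.p6, plus strand, 5′ to 3′) of *Il1r1*, the gene with the largest age difference here, and of *Il1rap*, the accessory chain it pairs with, with CG dinucleotides in capitals.
Il1r1 outer start, chr1:40224830-40225079: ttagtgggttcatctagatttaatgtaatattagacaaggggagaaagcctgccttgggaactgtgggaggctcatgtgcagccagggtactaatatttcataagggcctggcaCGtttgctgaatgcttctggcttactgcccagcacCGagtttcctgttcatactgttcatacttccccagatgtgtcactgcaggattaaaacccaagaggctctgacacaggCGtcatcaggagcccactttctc
Il1r1 inner start, chr1:40266336-40266585: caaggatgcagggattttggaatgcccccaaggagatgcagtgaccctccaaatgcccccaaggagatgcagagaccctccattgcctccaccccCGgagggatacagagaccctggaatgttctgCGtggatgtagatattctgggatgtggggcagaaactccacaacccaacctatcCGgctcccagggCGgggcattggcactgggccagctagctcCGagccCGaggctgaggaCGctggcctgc
Il1rap, chr16:26581455-26581704: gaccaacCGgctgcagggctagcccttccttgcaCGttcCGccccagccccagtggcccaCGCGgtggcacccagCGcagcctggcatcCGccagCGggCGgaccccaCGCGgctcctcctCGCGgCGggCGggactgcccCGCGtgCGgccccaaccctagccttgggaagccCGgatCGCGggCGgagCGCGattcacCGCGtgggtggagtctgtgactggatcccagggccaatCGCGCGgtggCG
The outer and inner *Il1r1* windows hold 3 and 7 CG dinucleotides and the *Il1rap* window 30, against a median of 6 over the 32851 RefSeq promoter windows of the same length. All 10 genes matched that table, with 15 starts in total. Of those promoters, 94.1% hold fewer CG than *Il1rap* and 29.0% fewer than the outer *Il1r1* window. RNA values summed over a gene do not tell which start was used.

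Both starts of *Il1rl1*, the member with the widest range between mice, were searched for AGATAA and TGATAA on both strands, the letters that GATA factors prefer, because *Gata2* is one of the HSC genes present here (208 to 1013 normalized read counts). Matches are in capitals.
Il1rl1 outer start, chr1:40429320-40429569: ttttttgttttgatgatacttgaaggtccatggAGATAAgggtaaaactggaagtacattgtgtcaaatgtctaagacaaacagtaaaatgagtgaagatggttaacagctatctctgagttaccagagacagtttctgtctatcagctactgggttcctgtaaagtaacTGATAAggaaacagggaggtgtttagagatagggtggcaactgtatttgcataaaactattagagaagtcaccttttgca
Il1rl1 inner start, chr1:40439379-40439628: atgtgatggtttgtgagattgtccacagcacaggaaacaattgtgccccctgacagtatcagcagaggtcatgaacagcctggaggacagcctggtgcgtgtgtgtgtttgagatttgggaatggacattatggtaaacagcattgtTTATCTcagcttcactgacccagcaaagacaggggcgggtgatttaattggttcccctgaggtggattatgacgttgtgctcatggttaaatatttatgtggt
Either motif occurred in both *Il1rl1* windows, in the *Il18rap* window and in the *Il1r2* window, and in 16.6% of all promoter windows. The outer *Il1rl1* window held 0 CG dinucleotides, which is a description of the sequence and not of binding.

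Levels can be compared between genes only per length, and for this the normalized read count was divided by the kilobases of exon of each gene. On that scale the kinase and adaptor genes led. *Irak1* had 38.1 ± 11.2 normalized read counts per kb (SD, n = 12) and *Myd88* 21.1 ± 5.36 (SD, n = 12). *Irak1* was above *Myd88* in 11 of 12 mice and *Myd88* above *Irak4* in 12 of 12 (two-sided exact sign-flip permutation test on log2(per kb + 1), adjusted over 9 neighbouring pairs, p = 0.00439 for both).

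Below them came *Irak4* at 8.95 ± 1.64, *Il1r1* at 8.92 ± 3.03, *Il18rap* at 8.83 ± 2.24 and *Il1rap* at 7.37 ± 1.92 normalized read counts per kb (SD, n = 12). *Il18r1* stood at 5.68 ± 3.09, *Il1r2* at 4.52 ± 2.76, *Il1rl1* at 3.93 ± 3.14 and *Il1rl2* at 3.41 ± 1.25 (SD, n = 12). No neighbouring pair from *Irak4* down to *Il1rl2* differed beyond the spread between mice (exact permutation tests, adjusted p between 0.136 and 0.948). Pairs of these 8 genes that are not neighbours in this order were not tested.

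To place the low members, the 1068 olfactory receptor genes with a row, which blood stem cells are not known to use, were taken as a scale after the data had been seen. Their median lay between 0.332 and 5.18 normalized read counts per kb in a mouse, from 2.20 to 5.18 in mice with letter A and from 0.332 to 2.0 in mice with letter B. The 95th percentile of these genes was exceeded by *Irak1* in 12 of 12 mice, by *Il1r1* and *Myd88* in 11, by *Il18rap* in 10, and by *Il1rap* and *Irak4* in 9. *Il18r1* exceeded it in 5 mice, *Il1rl1* in 2, and *Il1rl2* and *Il1r2* in 1 each. The signal of these last genes lay mostly within the range of the olfactory receptor genes of the same library, as the plot of levels per kb shows.

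**Figure D1:**
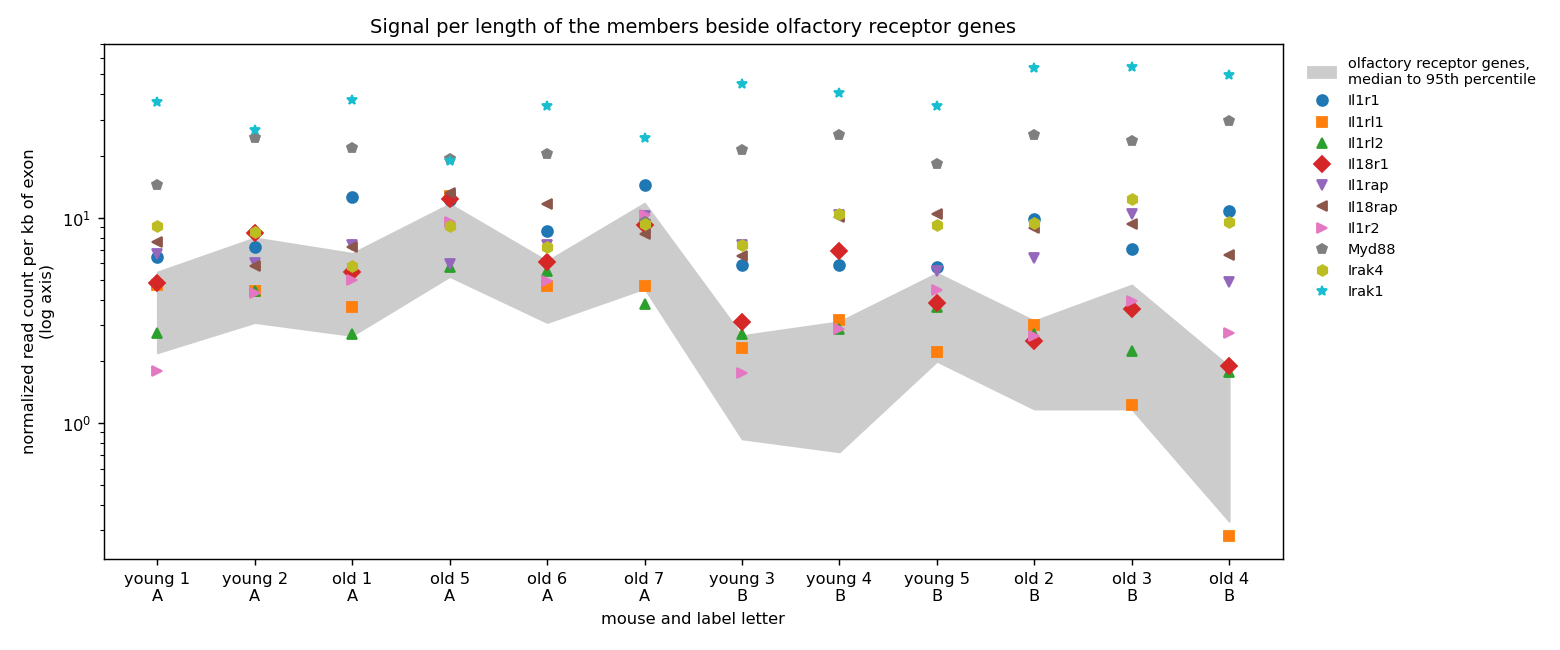
Normalized read count per kb of exon (log axis) of the 10 genes in each of the 12 mice, ordered by label letter and then age. The grey band runs from the median to the 95th percentile of 1068 olfactory receptor genes in the same mouse; *Irak1* lies above the band in all 12 mice, while *Il1rl1*, *Il1rl2* and *Il1r2* lie above it in 2, 1 and 1.

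The comparison of young and old mice asks which genes differ in HSCs upon ageing. Among the ligand-binding chains, *Il1r1*, which encodes the signalling receptor for IL-1α and IL-1β, was the member with the largest difference in the fit. It had 41.1, 46.2, 37.7, 37.5 and 36.7 normalized read counts in young mice 1 to 5 (96 to 192 reads). In old mice 1 to 7 it had 80.9, 63.0, 45.0, 68.4, 77.3, 54.8 and 92.2 (75 to 352 reads). Of the 7 old mice, 6 lay above every young mouse, and the groups overlapped only through old mouse 3 and young mouse 2. Over all genes tested, 0.461% had no overlap between the ages, a pattern that 0 of the 9 members tested showed.

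The mean of *Il1r1* was 39.8 ± 3.91 in young (SD, n = 5) and 68.8 ± 16.1 normalized read counts in old mice (SD, n = 7), a ratio of 1.73. Young mice varied by 9.83% of their mean and old mice by 23.5%. The difference of the mean log2(normalized read count + 1) was 0.74 (standard error 0.20, 95% interval 0.33 to 1.16, limma unadjusted p = 0.00143). Adjusted over all 12354 genes tested, whose mean reached 10, the limma p was 0.320, so that *Il1r1* was not called. A two-sided exact permutation test over the 792 splits into 5 and 7 gave p = 0.00505. *Il1r1* ranked 55th among the 12354 genes by its unadjusted p.

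The age difference of *Il1r1* was present within each label letter. Within letter A it had 43.6 ± 3.60 normalized read counts in young (SD, n = 2) and 76.3 ± 15.7 in old mice (SD, n = 4), and within letter B 37.3 ± 0.502 (SD, n = 3) and 58.8 ± 12.2 (SD, n = 3). Young and old mice did not overlap within either letter, with old mice higher in both, a pattern that 0.631% of the 12354 genes showed. The two-sided exact permutation p was 0.133 within letter A and 0.1 within letter B, in both cases the smallest that these numbers of mice allow.

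With the letter as a covariate the limma log2 difference of *Il1r1* was 0.69 (standard error 0.20, adjusted p = 0.214). Subtracting the olfactory receptor median of the same mouse left 4.49 ± 0.612 normalized read counts per kb in young (SD, n = 5) and 8.22 ± 2.07 in old mice (SD, n = 7), and the highest young value (5.17) then lay below the lowest old value (5.52). The share of all genes without overlap after that subtraction was not counted. In the fit across all genes after the subtraction the log2 difference of *Il1r1* was 0.82 (limma adjusted p = 0.907), where the median of all genes was -0.27.

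**Figure D2:**
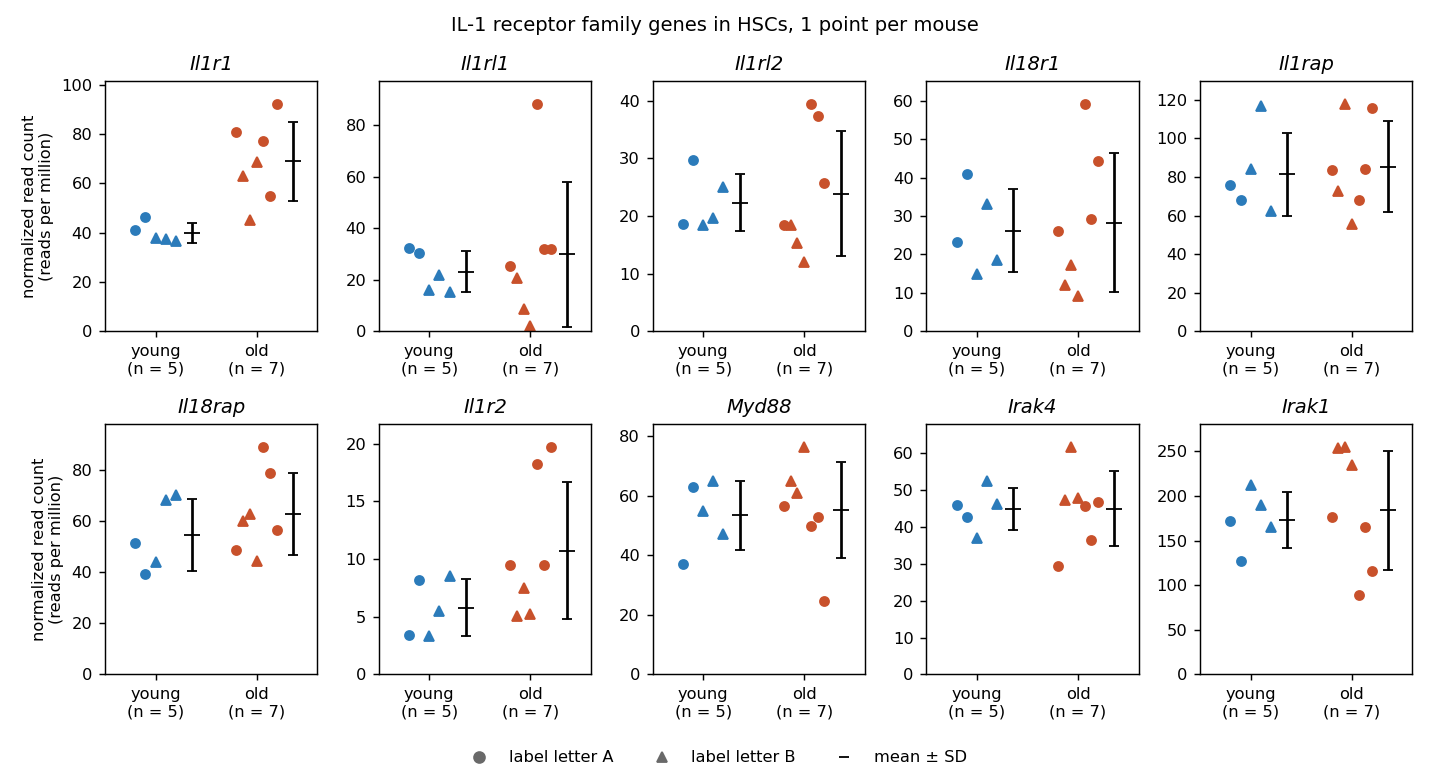
Normalized read count (reads per 1000000 of the scaled library) of each of the 10 genes in 5 young and 7 old mice, 1 point per mouse, with circles for label letter A, triangles for letter B and the mean ± SD beside each group. *Il1r1* is 36.7 to 46.2 in young and 45.0 to 92.2 in old mice, while the other 9 genes overlap more widely between the ages.

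Among the 9 members that reached the mean of 10, 0 were called between the ages by limma at an adjusted p under 0.05, against 0.105% of all genes tested. Only *Il1r1* had an unadjusted p under 0.05, a threshold passed by 3.95% of all genes. The quasi-likelihood and likelihood-ratio tests of edgeR on the recovered reads also called 0 members, against 0.146% and 0.332% of all genes tested. For *Il1r1* these 2 edgeR tests gave adjusted p = 0.224 and p = 0.0727. DESeq2 called *Il1r1* (log2 difference 0.77, standard error 0.20, adjusted p = 0.0304), where it called 0.372% of all genes. In bulk RNA, fewer cells of a type and less RNA per cell cannot be told apart.

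Markers of other cell types differed between mice, and their part in the *Il1r1* values was not tested. The summed normalized read count of 8 neutrophil genes with a row, of 9 listed, was 168 to 873 in young and 160 to 4183 in old mice, 0 of the 8 being called by limma, edgeR or DESeq2 and 0 having an unadjusted limma p under 0.05. Within letter A the old sums (394 to 4183) lay above the young sums (168 and 231), and within letter B the old sums (160 to 169) lay below the young sums (216 to 873). Old mouse 6, with the highest sum, had the second lowest *Il1r1* value among old mice (54.8). Old mice 5 and 7, with the next highest sums among old mice (1010 and 792), had *Il1r1* values of 77.3 and 92.2. The same mice had the lowest HSC and LSK sums (2141 and 3180), while old mouse 1 had 80.9 for *Il1r1* at an HSC and LSK sum of 5509. Monocyte and macrophage genes, 7 of 8 with a row, went the same way as the neutrophil genes within both letters. Their sums within letter A were 216 and 235 in young and 308 to 619 in old mice. Within letter B they were 213 to 288 in young and 148 to 195 in old mice. Of the 7 monocyte and macrophage genes, 1 exceeded the 95th percentile of the olfactory receptor genes in every mouse. B cell genes, 5 of 7 with a row, also had higher old sums within letter A. These were 102 to 121, against 89.3 and 96.6 in young mice. Sums of T, NK and innate lymphoid genes there were 229 to 254 in old and 215 and 225 in young mice. Within letter B both overlapped between the ages, and erythroid sums overlapped within both letters. Endothelial and stromal genes, 7 of 7 with a row, summed to 166 to 346 in young and 117 to 406 in old mice. Of these 7 genes, 0 exceeded the 95th percentile of the olfactory receptor genes in every mouse. Within letter A their sums were 235 and 346 in young and 277 to 406 in old mice, and within letter B 166 to 207 in young and 117 to 199 in old mice.

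Markers of progenitors were lower in the old mice on average for *Cd34* and *Flt3*, which encode surface proteins of multipotent progenitors, and their part in the *Il1r1* values was not tested. *Cd34* had 182 ± 53.0 normalized read counts in young (SD, n = 5) and 84.5 ± 10.4 in old mice (SD, n = 7). Its log2 difference of -1.04 missed the threshold (limma adjusted p = 0.0544, standard error 0.20), while the fit that also held the letter called it, at -0.99 (limma adjusted p = 0.00856). *Flt3* had 54.1 ± 13.6 in young (SD, n = 5) and 30.8 ± 13.0 in old mice (SD, n = 7), a log2 difference of -0.87 (limma adjusted p = 0.780), and -1.01 with the letter as a covariate (limma adjusted p = 0.0523). *Mpo*, on the same list, had a higher mean in old mice, with 61.6 ± 34.1 in young (SD, n = 5) and 140 ± 229 in old mice (SD, n = 7). Its log2 difference was -0.05 (limma unadjusted p = 0.954). *Cd48* had 7.30 ± 1.97 in young (SD, n = 5) and 5.38 ± 4.80 in old mice (SD, n = 7), under the minimum mean. The 4 progenitor genes listed, *Cd34*, *Flt3*, *Cd48* and *Mpo*, summed within letter A to 222 and 333 in young and 207 to 757 in old mice, and within letter B to 285 to 388 in young and 101 to 155 in old mice.

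*Il1rl1* encodes ST2, the receptor for IL-33, known from mast cells and type 2 lymphoid cells. It had 32.4, 30.3, 15.9, 22.0 and 15.3 normalized read counts in young mice 1 to 5, and in old mice 1.94 at the lowest, 25.3 at the median and 88.4 at the highest. The extremes both came from old mice, the lowest from old mouse 4 (10 reads) and the highest from old mouse 5, a 45.5-fold range that spans the whole young group. The log2 difference was -0.17 (standard error 0.60, 95% interval -1.43 to 1.09, limma adjusted p = 1), an interval that allows folds from 0.371 to 2.13. Within letter A the difference was 0.31 and within letter B -1.13. The interaction of age and letter was -1.44 (standard error 0.79, limma unadjusted p = 0.0788, adjusted p = 1).

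*Il18r1* encodes the ligand-binding chain for IL-18 and starts just behind *Il1rl1* on the chromosome. In young mice 1 to 5 it had 23.3, 40.9, 14.9, 33.2 and 18.5 normalized read counts. In old mice its lowest value was 9.14, its median 26.2 and its highest 59.2, again from old mice 4 and 5. Young values lay inside the old range, and the log2 difference was -0.05 (95% interval -0.93 to 0.82, limma adjusted p = 1). Its difference was 0.28 within letter A and -0.71 within letter B, with an interaction of -0.99 (limma unadjusted p = 0.116).

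*Il1rl2*, the receptor for IL-36 cytokines, had 22.3 ± 4.97 normalized read counts in young (SD, n = 5) and 23.9 ± 10.8 in old mice (SD, n = 7). The young range of 18.4 to 29.8 lay within the old range of 12.1 to 39.5. Its log2 difference of 0.00 had a 95% interval of -0.67 to 0.68 (limma adjusted p = 1). It was 0.29 within letter A and -0.44 within letter B, with an interaction of -0.73 (limma unadjusted p = 0.223), and -0.96 after the olfactory subtraction (limma adjusted p = 0.907).

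For both accessory chains the interval of the age difference included 0. *Il1rap*, which completes the receptors for IL-1, IL-33 and IL-36, had 75.6, 68.3, 84.0, 117 and 62.6 normalized read counts in young mice 1 to 5, and 55.6, 83.6 and 118 as the lowest, median and highest of the old mice. The 2 groups covered nearly the same range, with means of 81.5 ± 21.5 (SD, n = 5) and 85.3 ± 23.6 (SD, n = 7). The log2 difference was 0.05 (95% interval -0.40 to 0.51, limma adjusted p = 1), which corresponds to folds between 0.757 and 1.42. *Il18rap*, the accessory chain for IL-18, had 54.8 ± 14.1 in young (SD, n = 5) and 63.0 ± 16.0 in old mice (SD, n = 7). Its ranges of 39.4 to 70.5 and 44.5 to 89.2 overlapped, and the log2 difference was 0.20 (95% interval -0.26 to 0.65, limma adjusted p = 1).

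*Il1r2* encodes the decoy receptor, which binds IL-1 without a signalling domain. It had 3.42, 8.17, 3.34, 5.49 and 8.52 normalized read counts in young mice 1 to 5, and 5.06, 9.44 and 19.7 as the lowest, median and highest of the old mice (11 to 29 reads over all mice). The ages overlapped, with 4 of 7 old mice above all young mice, and these 4 were the old mice with letter A. Within letter A it had 5.80 ± 3.36 normalized read counts in young (SD, n = 2) and 14.2 ± 5.49 in old mice (SD, n = 4), without overlap, and within letter B 5.78 ± 2.60 (SD, n = 3) and 5.94 ± 1.36 (SD, n = 3), old-to-young ratios of 2.45 and 1.03. The two-sided exact permutation p within letter A was 0.133, the smallest that 2 young and 4 old mice allow. The share of all genes without overlap within letter A was not counted. The interaction of age and letter was -1.09 (limma unadjusted p = 0.257). The olfactory receptor median was also higher in the old mice with letter A (2.67 to 5.18 per kb) than in the other old mice (0.332 to 1.17), and its part in the *Il1r2* values was not tested. The mean of *Il1r2* over all mice, 8.63, is under the minimum of 10, so that no call was made. In the fit over all genes with a read the log2 difference was 0.71 (standard error 0.52, 95% interval -0.38 to 1.80, unadjusted limma p = 0.188), and the exact permutation p was 0.0884.

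The intervals of the age difference of the adaptor and the kinases lay between -0.52 and 0.55 on the log2 scale. *Myd88* had 53.4 ± 11.6 normalized read counts in young (SD, n = 5) and 55.2 ± 16.1 in old mice (SD, n = 7), with a log2 difference of 0.01 (95% interval -0.52 to 0.53). *Irak4*, the kinase that joins MYD88 first, had 44.9 ± 5.71 (SD, n = 5) and 45.0 ± 10.1 (SD, n = 7), with a log2 difference of -0.02 (95% interval -0.45 to 0.41). For *Irak1*, the kinase that IRAK4 activates, young mice 1 to 5 had 172, 127, 212, 190 and 165 normalized read counts, and old mice 89.2 at the lowest, 176 at the median and 255 at the highest. The old group thus reached both below and above the young one, and the log2 difference was 0.01 (95% interval -0.52 to 0.55, limma adjusted p = 1). Within letter B the old mice (235 to 255) lay above the young (165 to 212), a log2 difference of 0.39 (limma adjusted p = 0.478). The exact permutation p there was the smallest that 3 young and 3 old mice allow, as for *Il1r1* within letter B. The share of all genes without overlap within letter B was not counted. Within letter A the log2 difference of *Irak1* was -0.17, with an interaction of 0.56 (limma unadjusted p = 0.155).

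**Figure D3:**
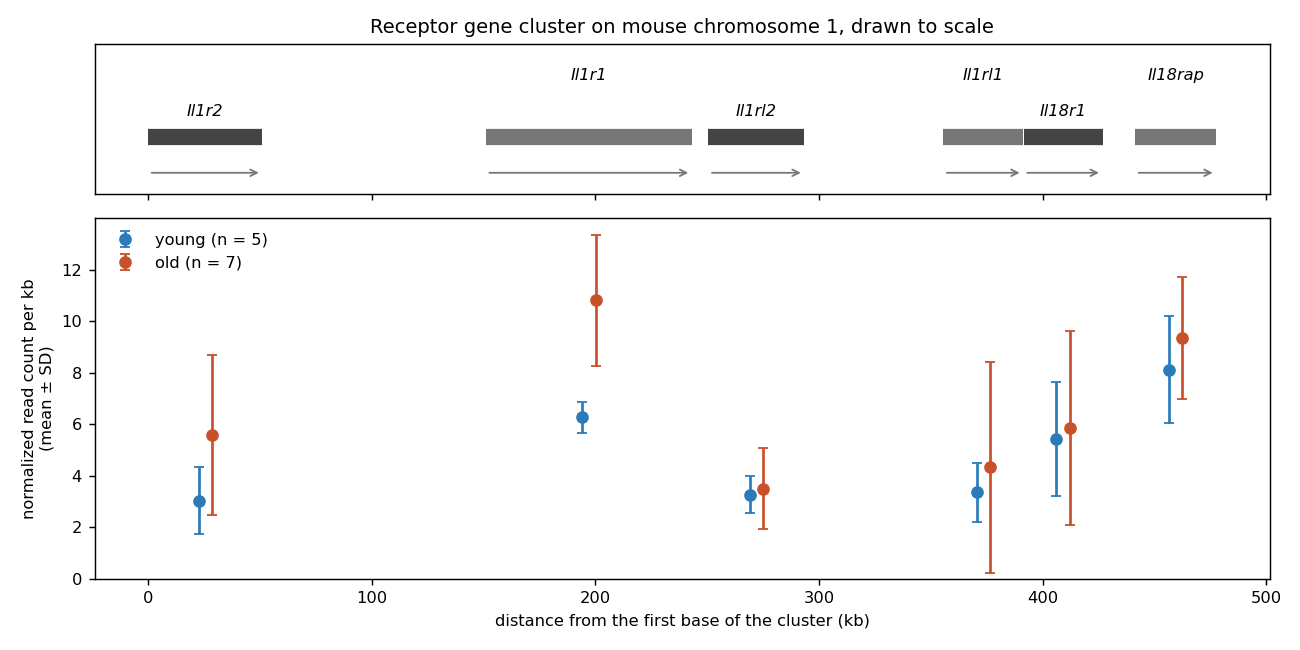
Upper panel, the 6 receptor genes of the chromosome 1 cluster to scale, with arrows in the direction of transcription. Lower panel, mean ± SD of the normalized read count per kb of exon in 5 young and 7 old mice at each gene's midpoint; *Il1r1* goes from 6.26 ± 0.615 to 10.8 ± 2.54, and for its neighbours the SDs of the 2 ages overlap.

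Read along the cluster, the age differences on the log2 scale were 0.71 for *Il1r2*, which had a ratio near 1 within letter B, 0.74 for *Il1r1* and 0.00 for *Il1rl2*, which begins 7352 bases behind *Il1r1*. Those of *Il1rl1*, *Il18r1* and *Il18rap* were -0.17, -0.05 and 0.20. The difference between *Il1r1* and its neighbours was not tested.

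The letters of the mouse labels were compared in the same way. With age in the model, 3 of the 9 members tested were called between letters A and B, where 36.1% of all genes were called (limma adjusted p under 0.05), so that the share of members was close to that of all genes. Without young mouse 2 the share of all genes fell to 23.8%, with 3 of the 9 members called. The median log2 difference of all genes, B minus A, was -0.09. Rescaling by median ratios moved it to 0.21 and turned the calls over all genes from 29.2% higher in letter B to 56.9% higher, and the values below are read against that shift.

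*Il1rl1* had 25.3, 32.0 and 88.4 normalized read counts as the lowest, median and highest of the 6 mice with letter A, and 1.94, 15.6 and 22.0 in the 6 mice with letter B. The letters did not overlap, as for 10.5% of all genes. The log2 difference was -1.65 (standard error 0.40, limma adjusted p = 0.00359), and after median-ratio scaling it was -1.37 (limma adjusted p = 0.00535). *Il18r1* had 37.2 ± 13.6 normalized read counts with letter A (SD, n = 6) and 17.5 ± 8.39 with letter B (SD, n = 6), overlapping between 23.3 and 33.2. Its log2 difference was -1.12 (standard error 0.31, limma adjusted p = 0.00731), and -0.83 after median-ratio scaling (limma adjusted p = 0.0211). The olfactory receptor genes were also higher with letter A, as given above, and the part of such signal in the letter difference was not tested.

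Summed mast cell and basophil genes, 5 of 8 with a row, lay between 20.3 and 89.7 normalized read counts with letter A and between 9.72 and 59.3 with letter B. Of these 5 genes, 0 exceeded the 95th percentile of the olfactory receptor genes in every mouse. T, NK and innate lymphoid genes, 10 of 11 with a row, summed to between 215 and 254 with letter A and between 185 and 233 with letter B. Their part in the *Il1rl1* and *Il18r1* values was not tested.

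*Irak1* went the other way, with 141 ± 35.5 normalized read counts with letter A (SD, n = 6) and 218 ± 36.1 with letter B (SD, n = 6). Its log2 difference was 0.68 (standard error 0.19, limma adjusted p = 0.00845) and 0.98 after median-ratio scaling (limma adjusted p = 0.00248). *Myd88* at 0.43 (limma adjusted p = 0.126) and *Irak4* at 0.24 (limma adjusted p = 0.368) were called only after median-ratio scaling, at 0.73 (adjusted p = 0.0160) and 0.54 (adjusted p = 0.0439). That scaling called 47.8% of all genes between the letters. *Il1r1* had -0.31 (95% interval -0.71 to 0.09, limma adjusted p = 0.221), *Il1rl2* -0.60 (limma adjusted p = 0.101, and 0.0447 without young mouse 1), *Il1rap* 0.02 and *Il18rap* 0.01. For the interaction of age and letter limma called 0 of the 9 members, with 0 at an unadjusted p under 0.05, against 0.0162% of all genes called; no count test of the interaction was run.

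**Figure D4:**
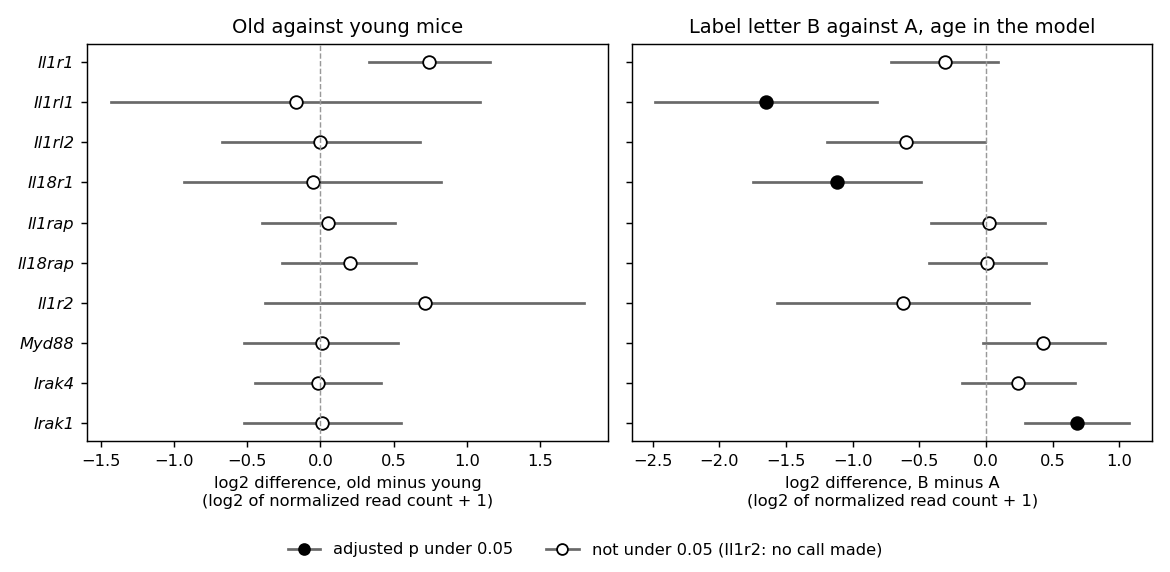
Log2 differences of log2(normalized read count + 1) with 95% intervals, old minus young (left) and letter B minus letter A with age in the model (right), from 12 mice; filled points have a limma adjusted p under 0.05. On the left only the interval of *Il1r1* (0.33 to 1.16) excludes 0, and on the right *Il1rl1*, *Il18r1* and *Irak1* are filled.

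The other genes of the pathway were taken from 6 lists. Of 75 genes listed, 62 had a row and 55 reached the mean of 10. Limma called 0 of these 55 between the ages, against 0.105% of all genes tested. An unadjusted p under 0.05 was reached by 0 of the 55 and by 3.95% of all genes tested. The edgeR quasi-likelihood and likelihood-ratio tests and DESeq2 also called 0 of the 55, against 0.146%, 0.332% and 0.372% of all genes. Of the 55, 28 had a log2 difference above and 27 below 0, with a median of 0.01 beside -0.02 over all genes tested. With the letter as a covariate limma called 0 of the 55, against 0.299% of all genes.

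Of the 11 ligand genes, 7 had a row and 5 were tested, with log2 differences from -0.35 to 0.57 and a median of 0.18. *Il18bp*, which encodes the binding protein that holds IL-18 in check, had the largest mean and went from 31.7 to 35.8 normalized read counts. *Il1rn*, the antagonist of the IL-1 receptor, had the smallest unadjusted p of the list, with means of 8.11 in young and 13.0 in old mice (limma unadjusted p = 0.340) and values above the olfactory 95th percentile in 0 mice. *Il18* itself exceeded that percentile in 12 of 12 mice at 10.6 to 24.6 normalized read counts, and *Il1b* lay between 0.194 and 37.1.

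Of the other receptor-like genes, *Sigirr*, known as an inhibitory member of the family, had 56.0 normalized read counts in young and 54.4 in old mice (log2 difference -0.08, limma unadjusted p = 0.728). *Il1rapl2*, a relative of the accessory chain, had 14.8 and 23.4 (log2 difference 0.60, limma unadjusted p = 0.0901) and exceeded the olfactory 95th percentile in 4 of 12 mice. In the maturation list, the genes of the inflammasome that processes IL-1β and IL-18, 5 of 7 had a row. *Naip5* had the largest mean (105 in young and 111 in old mice), and *Casp4* the smallest unadjusted p (37.1 and 52.8, limma p = 0.130). *Casp1*, the protease itself, had 62.9 and 72.3 and exceeded the olfactory percentile in 12 of 12 mice.

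Of 24 proximal signalling genes, 19 were tested, 7 with a difference above and 12 below 0 (median -0.16). *Tab2*, a partner of the kinase TAK1, had the largest mean, 305 in young and 292 in old mice, and *Map2k6*, which activates p38, the smallest unadjusted p (31.5 and 25.1, limma p = 0.171). *Irak3*, known as a brake on IRAK signalling, lay between 110 and 300 normalized read counts and had 53.1 per kb on average, beside 38.1 for *Irak1*. Its means were 172 in young and 212 in old mice, a log2 difference of 0.25 (limma unadjusted p = 0.316).

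Of the feedback and response genes, 10 of 12 were tested, 2 with a difference above and 8 below 0 (median -0.19). *Myc* had the largest mean (324 in young and 261 in old mice) and *Nfkb1* the smallest unadjusted p (200 and 161, limma p = 0.137). *Nfkbia*, a feedback inhibitor induced by NF-κB, had 131 and 143. On the list of Toll-like receptors and TIR adaptors, 13 of 18 genes were tested, 9 above and 4 below 0 (median 0.30). Of the genes on this list, 0 exceeded the olfactory 95th percentile in every mouse. Between the letters limma called 7 of the 13, all lower with letter B, where it called 36.1% of all genes. More old than young mice had letter A, and the part of the letter in these age differences was not tested. *Tlr4*, the lipopolysaccharide receptor, had the largest mean, 72.7 in young and 95.2 in old mice (log2 difference 0.34, limma unadjusted p = 0.169). *Tlr11* had the smallest unadjusted p (8.31 and 16.6, limma p = 0.0836) and exceeded the olfactory 95th percentile in 2 of 12 mice.

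Genes most like a member across the 12 mice were sought by Pearson's r after centring log2(normalized read count + 1) within each combination of age and letter. For *Irak1* these were *Chd4* (r = 0.99), *Ccng1* and *Hsp90ab1* (both r = 0.98), and for *Il1r1* they were *Ldlrad3* (r = 0.95), *Aagab* (r = 0.94) and *Fscn1* (r = 0.92). These are descriptions over n = 12 mice that share depth and scaling. They are the highest values among all genes with a mean of at least 10, and the r that chance would give was not computed. None of the 3 genes like *Il1r1* had a positive log2 difference between the ages (-0.05, -0.20 and -0.47). The centring removed age differences, so r carries no information about them.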

How the data were processed

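RNA of 15000 LSK-SLAM cells per mouse was depleted of ribosomal RNA, and 300 pg entered the TotalScript kit. The submitters' processing notes name STAR 2.5.4b, edgeR 3.24.3 and mm10; counter, annotation and strand setting are not given in the sources used here. The table that the authors deposited has 1 column for each mouse, a signal of normalized reads per 1000000 of the scaled library; 100% of values were whole multiples of 1 read (tolerance 0.01). A deposited table of the authors' own age comparison was not used.

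Age and letter were fitted with limma 3.58.1 (lmFit, eBayes with trend, R 4.3.3) on log2(normalized read count + 1) for 12354 genes with a mean of at least 10, Benjamini-Hochberg adjusted, called under 0.05. A fold change on this scale understates changes of low genes. Count tests used edgeR 4.0.16 and DESeq2 1.42.0, and permutation tests scipy. Simulated data were used to test the limma fits of age, of age with the letter as a covariate, and of the letter. The edgeR and DESeq2 fits of age without the letter were tested in the same way, and the interaction fit for false calls only. The simulated age data held no letter effect. The single-letter, replicate-block, median-ratio and olfactory-subtraction fits and the count fits with the letter were not tested on simulated data. Members and lists were chosen with earlier results of these data known. From each pathway list the called genes, the gene with the largest mean and that with the smallest unadjusted p were named; *Il18*, *Il1b*, *Casp1*, *Irak3* and *Nfkbia* were added after their values were seen. The 3 genes most like the member with the largest mean and the member with the smallest p were named. Lengths are union exons of GENCODE vM21. The labels number the replicates without saying how the mice were handled, and p-values measure the spread between these samples. Fits with the letter as covariate by edgeR, DESeq2 and after median-ratio scaling, and with olfactory receptor signal subtracted, were added after the data were seen.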

Additional observations from a re-analysis of the deposited data

Results flagged for a closer look

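Each of the 10 genes was checked in the young and in the old group, 20 groups of values in all, for a single mouse far from the others by Dixon's criterion, which chance flags in about 1 of 20 groups. *Il1rl1* in old mouse 5 stood out, at 88.4 normalized read counts with the next old mouse at 32.1, a gap of 0.651 of the group's range against a critical value of 0.568. Old mouse 5 also had the highest median of the olfactory receptor genes (5.18 normalized read counts per kb), and the part of such signal was not tested. Without this mouse the age difference of *Il1rl1* on the log2 scale was -0.52 and its letter difference -1.39, both from limma.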

How the results depend on the processing

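Counting error is largest in the shallow old libraries with letter A, and *Il1r2*, *Il1rl1* and *Il1rl2* rest on few reads. For *Il1r1* the age difference was positive in all 32 alternatives (0.62 to 0.84 on the log2 scale), with adjusted p between 0.0304 and 1. It was called by DESeq2 and by DESeq2 with the letter as a covariate (1 member each) and in no other setting; leaving out each mouse gave 0.67 to 0.84, with limma adjusted p between 0.237 and 0.823. Over all genes the main counts were 12 higher and 1 lower in old mice. They became 20 and 2 with a minimum mean of 30, 2 and 0 without the trend, 35 and 2 with the letter as a covariate, 1 and 0 with letter A alone, 81 and 19 with letter B alone, 37 and 4 with the edgeR likelihood-ratio test, and 41 and 5 with DESeq2. With a minimum mean of 1 there were 2 lower, with the edgeR quasi-likelihood test 2 lower, and with median-ratio scaling 4 higher. Leaving out 1 mouse gave 3 to 30 higher (30 without old mouse 5; 3 without young mouse 3 or 4 or old mouse 1, 2 or 3; 4 without young mouse 5, 5 without young mouse 1, 6 without old mouse 6) and 0 to 2 lower. Of the settings added after the data were seen, the letter as a covariate gave 40 and 3 with edgeR, 69 and 15 with DESeq2 and 29 and 3 after median-ratio scaling, and the olfactory subtraction gave 0 and 0, or 2 and 0 with the letter; at an unadjusted p under 0.05 there were 480 and 555 genes under the subtraction. The causes were not tested.

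The replicate numbers of young and old mice belong to different animals, whose deviations from the age means correlated between -0.559 and 0.615. With the replicate block over replicates 1 to 5, 18 genes were higher and 1 lower, against 7 and 1 in the same mice without the pairing; 0 members were called in either. Under the block the difference was -0.05 for *Il1rap* and 0.02 for *Irak4*, as it was without the pairing.

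Small age differences changed sign with the setting. *Il1rl1* was 0.31 with letter A alone, 0.34, 0.30 and 0.35 with the edgeR quasi-likelihood test, its TMM factors and the likelihood-ratio test, and 0.33 with DESeq2. In the same order *Il18r1* was 0.28, 0.08, 0.05, 0.08 and 0.06. *Irak4* was 0.01 in each of the 4 count tests, 0.02 in limma with the letter as covariate, 0.21 with letter B alone, and 0.03, 0.04 and 0.03 with the letter in edgeR, DESeq2 and median-ratio fits. With letter B alone *Il1rap* was -0.12 and *Il18rap* -0.11; with letter A alone *Myd88* was -0.14 and *Irak1* -0.17, and both were -0.03 with median-ratio scaling. The olfactory subtraction gave -0.24 for *Il1rap* (-0.10 with the letter), -0.12 for *Myd88* and -0.06 for *Irak1*. Leaving out 1 mouse gave ranges of -0.52 to 0.30 for *Il1rl1*, -0.27 to 0.16 for *Il18r1*, -0.03 to 0.19 for *Il1rap*, -0.11 to 0.19 for *Myd88*, -0.10 to 0.08 for *Irak4* and -0.09 to 0.17 for *Irak1*. None of these values was called. For the letter, median-ratio scaling raised the members called from 3 to 5 of 9, and the share of all genes called from 36.1% to 47.8%. Without age in the model *Il18rap* was -0.02, and leaving out 1 mouse gave -0.12 to 0.13 for *Il18rap* and -0.11 to 0.17 for *Il1rap*.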
